A study of Mus musculus with 4 samples.

Results

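The proliferation and cell cycle genes are 56 mouse genes that drive or accompany cell division, of 32360 genes on the array. They were chosen by name, as cyclins and their kinases, replication licensing factors, enzymes of nucleotide supply, mitotic kinases, spindle and centromere proteins, E2F factors and kinase inhibitors, with earlier results of these data known, and they include genes that the study named as changed (Cdk6 and Suv39h2). Each was read by its brightest probe among those whose target accession maps to its symbol. All 56 had a probe on the array, and 54 had a ratio on at least 3 arrays and were tested. In 51 of them the signal was well above background in both channels of each of the 4 arrays, and these are called measured in full.

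The RNA came from temporal bone areas with the middle ear of male BALB/c mice aged 6 to 10 weeks, 9 of which were used. The samples labelled DEP_ear are from mice that breathed diesel exhaust particles (DEPs) daily for 1 h over 5 days, with tissue taken on day 14. The samples labelled CON_ear are control ears, for which the labels give the treatment as none and the methods describe no sham exposure. Each of the 4 arrays, which the labels call biological replicates, carried a DEP_ear extract in the red dye Cy5 and a CON_ear extract in the green dye Cy3. The number of mice behind an extract is not given in the sources used here, and the dyes were not swapped, so a dye preference of a probe and an effect of exposure cannot be told apart. In the labels both treatments stand under Cy5, although a source name is given for either dye, and the source names were followed. Values are log2 ratios, computed from the deposited ratios, with the channel labelled DEP over that labelled control. A value of 0 means equal signals. For Suv39h2 the direction opposes that of the study, which lists this gene among those lower after exposure. Here Suv39h2 was higher in the channel labelled DEP. The study also lists Cdk6 as lower. In these arrays Cdk6 was above background only in the channel labelled DEP, so it gives no measured fold.

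Cells enter the division cycle from the G1 phase when D-type and E-type cyclins activate their kinases, which release E2F transcription factors from the retinoblastoma protein. Replication origins are loaded with the MCM helicase before DNA synthesis, and cyclin A and B with Cdk1 then drive the cell into mitosis, where the spindle checkpoint holds back the anaphase-promoting complex until all chromosomes are attached. In most adult tissues few cells cycle. The temporal bone of a mouse also holds bone marrow, whose erythroid, B cell and granulocyte precursors divide all the time, and skin, whose basal keratinocytes divide.

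The cell cycle genes lay a little above 0 in the mean over the 4 arrays, with no member past the adjusted test, but most shifted together on single arrays, and not in the same direction on each. Of 54 tested, 44 were lower in the channel labelled DEP on array 1, where 51.6% of all genes tested were lower. On array 2, 51 of 54 were higher, against 58.4% of all genes. On array 3, 51 of 53 were higher, against 53.2%. On array 4, 40 of 54 were higher, against 54.2%. Lower on array 1 and higher on arrays 2, 3 and 4 was the order of signs of 36 of the 53 members with 4 ratios, against 10.6% of all genes and 11.1% of genes measured in full. This combination was chosen after the values were seen, so it is a description and was not tested. Another background correction with median centring was run (normexp, then each array centred on its median). With it 22 of 54 members were lower on array 1, against 43.0% of all genes, so this count was near the background. Of the 51 measured in full 21 were lower, against 33.2% of all genes measured in full. The order of signs was then found in 20 of 53 members, against 8.42% of all genes and 10.4% of genes measured in full. The median of the members was then 0.06 on array 1 and 0.91 on array 3, so array 1 remained below array 3 but no longer below 0.

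The medians of the members were -0.25 on array 1, 0.28 on array 2, 0.48 on array 3 and 0.10 on array 4. Over all genes tested the medians had the same order of signs but stayed close to 0, at -0.02, 0.08, 0.03 and 0.04. The 25th and 75th percentiles of the members were -0.45 and -0.07 on array 1, 0.18 and 0.46 on array 2, 0.35 and 0.68 on array 3, and -0.02 and 0.25 on array 4. The middle range of array 1 thus lay below those of arrays 2, 3 and 4, for array 4 by little (-0.066 against -0.018). Over all genes tested the middle ranges overlapped. They ran from -0.43 to 0.36, -0.20 to 0.34, -0.26 to 0.31 and -0.25 to 0.30 on arrays 1 to 4. These ranges are a spread over genes and not over extracts.

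**Figure D1:**
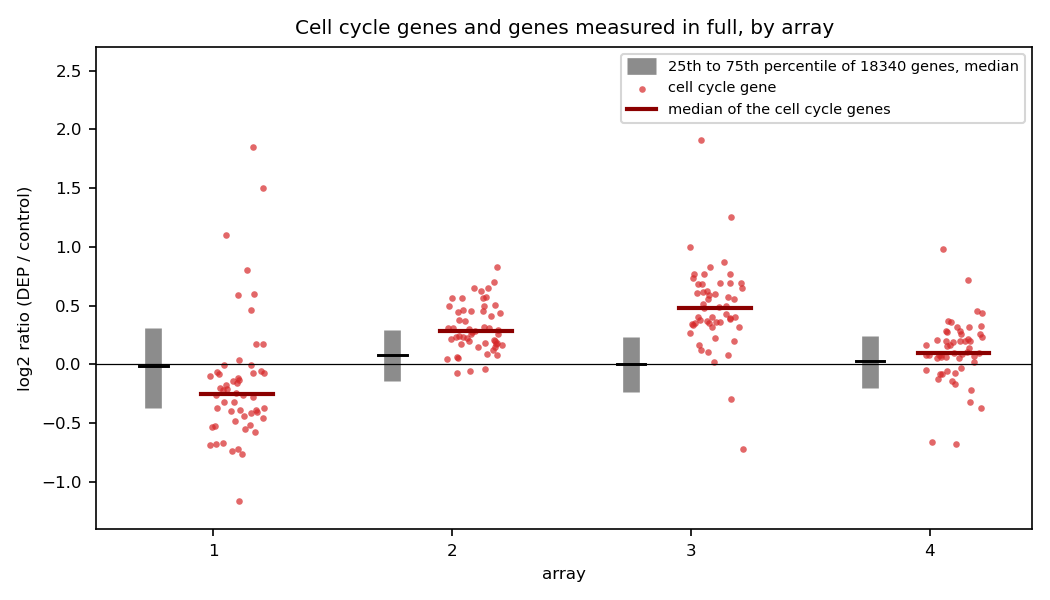
Log2 ratio (DEP channel over control channel) of each cell cycle gene on each of the 4 arrays (points, with the median as a dark red line), beside the range from the 25th to the 75th percentile of 18340 genes measured in full (grey bar, with the median as a black line). The median of the cell cycle genes is -0.25 on array 1 and 0.48 on array 3, while that of the genes measured in full stays near 0 on every array.

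As a mean over the arrays, 45 of 54 members were above 0, against 54.2% of all genes, and the median of the members was 0.16, against 0.03 over all genes. After Benjamini-Hochberg adjustment by limma, 0 of 54 members and 0.0% of all genes had a p under 0.05. An unadjusted p under 0.05 was found for 3 of the 51 members measured in full, all of them higher (Gmnn, Tyms and Suv39h2), and for 0 that were lower, while among all genes measured in full 6.55% passed as higher and 6.07% as lower. The members' count was thus near the background. Cdk6 is a further member with such a p, but its control signal was not above background on any array, so its ratio is not a measured fold. Past 2-fold there were 0 members measured in full, higher or lower, against 0.698% and 2.45% of all genes measured in full. Higher on all 4 arrays were 4 of 53 members (Tyms, Suv39h2, Cdk2 and the dim Cdk6), against 17.2% of all genes, and lower on all 4 were 0, against 11.5%.

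These counts rest on which arrays are used. The 3 members measured in full that were higher with an unadjusted p under 0.05 became 15 without array 1, where 7.62% of all genes measured in full passed, 0 without array 2 and 1 without array 3. After normexp and median centring, 29 of these 51 members were higher with an unadjusted p under 0.05, against 39.3% of all genes measured in full, and 8 had an adjusted p under 0.05, against 15.4%, so the latter count was near the background. That setting moved the median of the 18340 genes measured in full from 0.03 to 0.26. For a single gene, the smallest p of an exact sign-flip test is 0.125, as 4 ratios allow 8 patterns. The arrays came from 1 slide and 1 scan, so no batch could be tested.

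**Figure D2:**
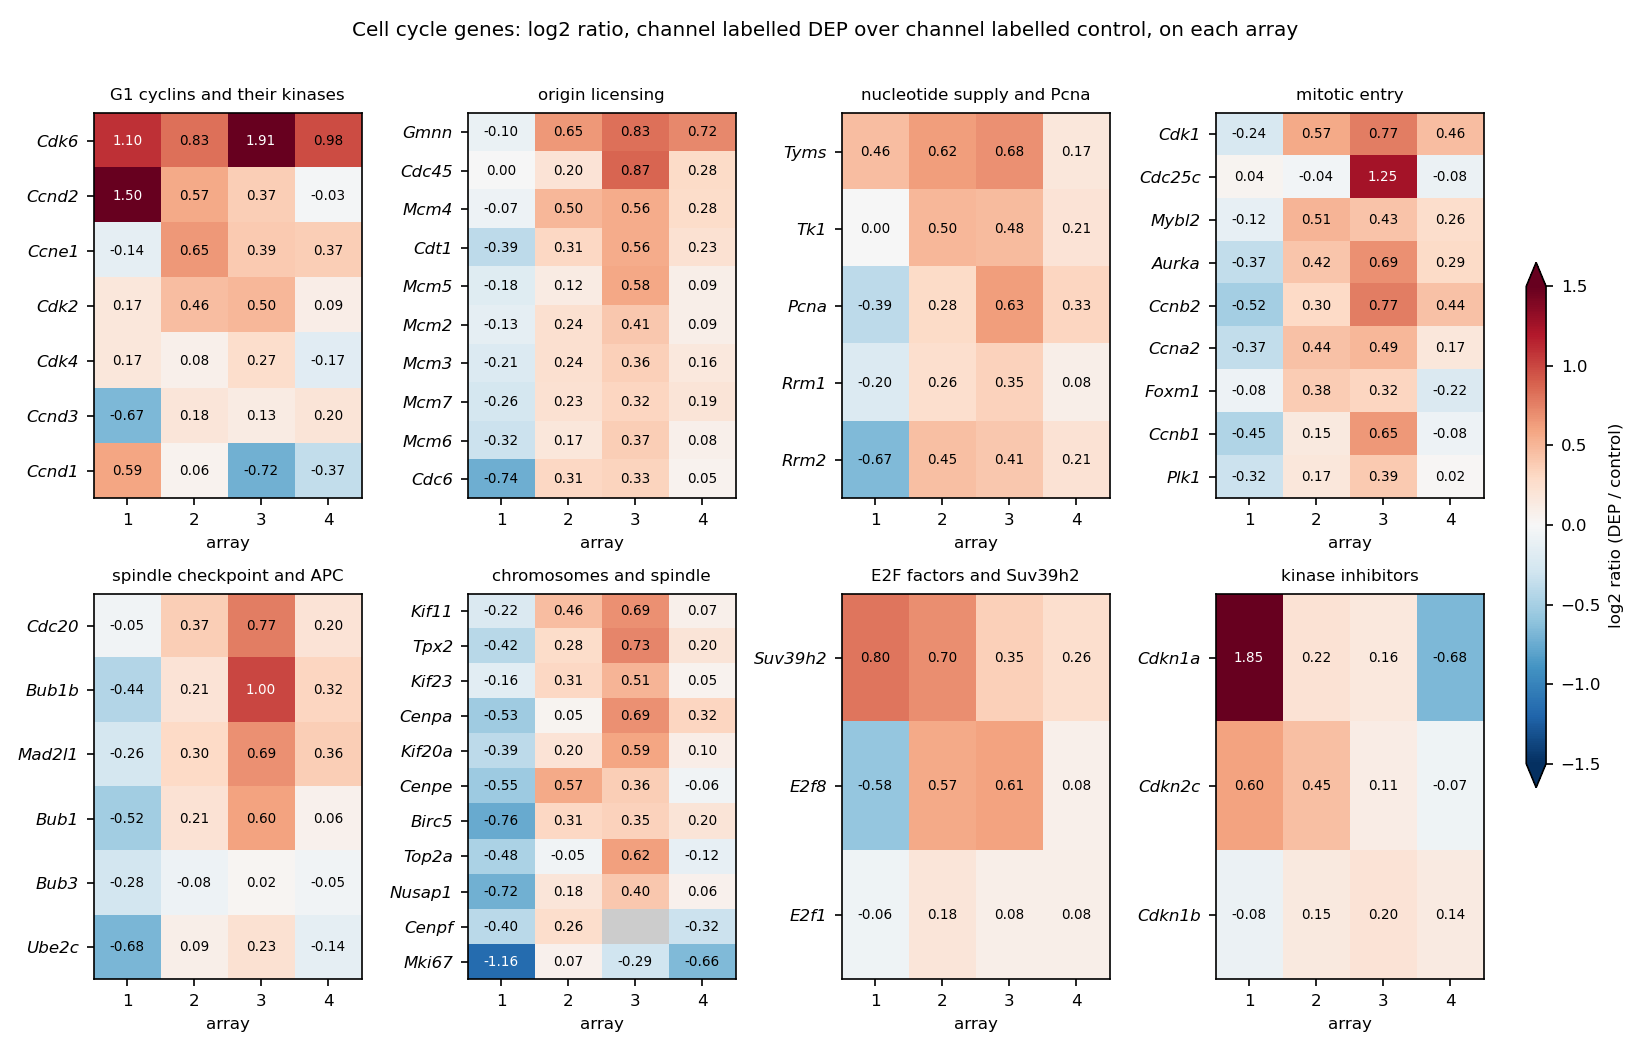
Log2 ratio (channel labelled DEP over channel labelled control) of the 54 tested cell cycle genes on each of the 4 arrays, in 8 panels by role and ordered within a panel by the mean. Blue is lower and red is higher in the channel labelled DEP, and grey is a spot without a ratio. The row of Cdk6 rests on control signals that were not above background. The replication, mitotic and spindle panels are mostly blue on array 1 and red on arrays 2 and 3, and Mki67 is blue on 3 of 4 arrays.

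Markers of cell types that divide in the dissected tissue did not share 1 order over the arrays. All 10 erythroid precursor markers were measured on all arrays in both channels, with none at background. Their medians were -0.76, 0.42, 0.40 and 0.17 on arrays 1 to 4, and 8 of 10 were lower on array 1 and higher on arrays 2, 3 and 4. Their summed signal lay between 236408 and 293354 in the channel labelled DEP and between 144046 and 377346 in the channel labelled control. Gata1, the factor that defines the erythroid lineage, had ratios of -0.59, 0.44, 0.35 and 0.16. This was also the order of the cell cycle genes, and the part of erythroid cells in their ratios was not tested.

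Of 11 B cell precursor markers, 10 were measured in full and the other one on 3 in the channel labelled control. Their medians were -0.64, 0.06, 0.67 and 0.59, and 8 of 11 had the same order of signs. Their summed signal ranged from 25905 to 35888 in the channel labelled DEP and from 18452 to 42206 in the channel labelled control. The 10 granulocyte precursor markers, all measured, had medians of -0.59, -0.09, 0.58 and 0.28, and 3 of 10 had that order of signs. Their summed signal ranged from 160829 to 255501 in the channel labelled DEP and from 195855 to 345797 in the channel labelled control. On arrays 3 and 4 the sums of both channels were nearly level, with log2 ratios of 0.0067 and 0.037. The median of each of the 3 precursor lists was thus below 0 on array 1 and above 0 on arrays 3 and 4, as that of the cell cycle genes was, and their part in the result was not tested. After normexp and median centring the precursor medians on array 1 were -0.39, -0.43 and -0.17, while that of the members was 0.06. The order of signs was then found in 7 of 10 erythroid, 9 of 11 B cell and 7 of 10 granulocyte markers, against 8.42% of all genes. With normexp and loess the medians on array 1 were -0.68, -0.51 and -0.57, and that of the members was -0.21. The order was then found in 8 of 10, 5 of 11 and 3 of 10, against 7.76% of all genes.

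Basal keratinocyte and hair follicle markers, another dividing source, had medians opposite in sign to the members on arrays 1 and 4. All 7 were measured, their medians were 2.17, 0.50, 0.08 and -0.47, and 0 of 7 had the order of signs described. Their summed signal was 213117 on array 1 in the channel labelled DEP against 49076 in the channel labelled control, and 30672 against 60647 on array 4. In these extracts, fewer cells of a type and less RNA per cell cannot be told apart.

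The order of signs of the members was found in 3 of 7 T cell markers and in 1 of 7 bone and cartilage markers, against 10.6% of all genes. Of 8 T cell markers, 5 were measured in full, and Cd8a had no channel above background on any array. The medians of the T cell list were -0.10, 0.16, 0.37 and 0.24. The epithelial list that checks the labelled tissue had all 8 genes measured, with medians of -0.22, 0.25, -0.64 and -0.42. Bone and cartilage had medians of -0.07, 0.23, 0.15 and 0.15 over 7 genes. Neuronal markers, all 8 measured, had medians of -1.97, -1.81, -0.68 and 0.05.

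**Figure D3:**
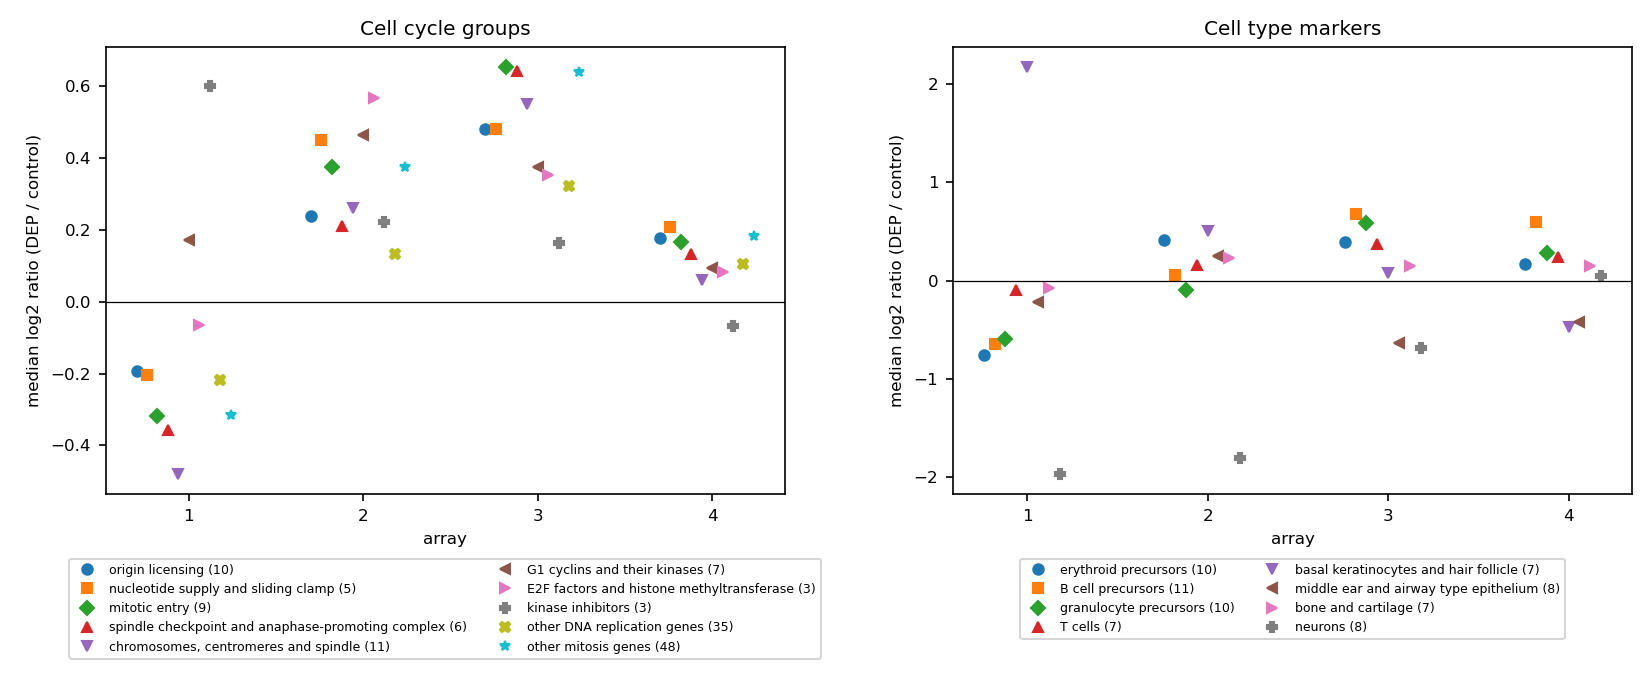
Median log2 ratio (channel labelled DEP over channel labelled control) on each array for groups of cell cycle genes (left) and for marker lists of cell types (right), with the number of genes in parentheses and no error bar, as each point is 1 array. The y axes differ in scale. On array 1 the replication and mitosis groups lie between -0.48 and -0.19 and the 3 precursor lists between -0.76 and -0.59, while the keratinocyte list is at 2.17.

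The origin licensing genes had 1 order of signs in the deposited ratios. All 10 were measured in full, and all 10 were lower on array 1, Cdc45 by as little as -0.0026, and higher on arrays 2, 3 and 4 in the channel labelled DEP, with medians of -0.19, 0.24, 0.48 and 0.18. After normexp and median centring, 1 of 10 was lower on array 1, with medians of 0.12, 0.40, 0.96 and 0.58. With normexp and loess, 8 of 10 were lower there, with medians of -0.12, 0.20, 0.41 and 0.13. The 6 MCM genes, Mcm2 to Mcm7, encode the subunits of the replicative helicase and lay between -0.32 and -0.07 on array 1 and between 0.32 and 0.58 on array 3. Mcm4 had signals of 6087, 6153, 4363 and 5436 in the channel labelled DEP and of 6400, 4352, 2961 and 4476 in the channel labelled control on arrays 1 to 4. The control channel varied more than the DEP channel between arrays. These signals were not normalized between arrays. In the control channel 68.0% of all probes were well above background on array 1 and 59.2% on array 3. A difference in signal between arrays can therefore not be read as one between extracts, here and for the genes below. The mean log2 ratio of Mcm4 was 0.32 ± 0.29 (SD, n = 4 arrays; adjusted p = 0.322, limma).

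Gmnn, which encodes geminin, the inhibitor that stops origins from being loaded again within a cycle, was the highest of the licensing group. Its ratios were -0.10, 0.65, 0.83 and 0.72. Its signals were 646, 853, 609 and 709 in the channel labelled DEP and 692, 542, 343 and 431 in the channel labelled control. Only on array 1 was the control signal the higher one. The mean of Gmnn was 0.52 ± 0.42 (SD, n = 4 arrays; standard error 0.19, unadjusted p = 0.0400, adjusted p = 0.252, limma). Cdt1, the loader that geminin binds, had a mean of 0.18 ± 0.40 (SD, n = 4 arrays). Cdc6, the other loader, was the lowest of the group on array 1 at -0.74, and its 2 probes differed in sign, with means of -0.01 and 0.50.

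Nucleotide supply and the sliding clamp showed the same order except for 1 gene. Pcna (the clamp that holds DNA polymerases on the template), Rrm1 and Rrm2 (the subunits of ribonucleotide reductase) and Tk1 (thymidine kinase) were below 0 on array 1 and above 0 on arrays 2 to 4, while after normexp and median centring 1 of the 5 genes was below 0 on array 1. With normexp and loess, 3 of the 5 were below 0 there. Rrm2 went from -0.67 on array 1 to 0.45, 0.41 and 0.21 on the others. Tyms, thymidylate synthase, was the exception and was above 0 on all 4 arrays, at 0.46, 0.62, 0.68 and 0.17. Its signals were low, at 140, 103, 84 and 101 in the channel labelled DEP and 102, 67, 52 and 90 in the channel labelled control. Within each array the DEP signal was higher, but the ranges of the channels over the arrays overlapped. The mean of Tyms was 0.48 ± 0.23 (SD, n = 4 arrays; standard error 0.13, unadjusted p = 0.0145, adjusted p = 0.187, limma). With normexp and either loess or median centring this mean was 0.19.

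Genes of mitotic entry had medians of -0.32, 0.38, 0.65 and 0.17, and that of array 1 was 0.05 after normexp and median centring and -0.24 with normexp and loess. Cdk1, the kinase of mitosis, had ratios of -0.24, 0.57, 0.77 and 0.46. Its partner Ccnb2 had signals of 6421, 8795, 6421 and 8116 in the channel labelled DEP and 9177, 7165, 3774 and 5993 in the channel labelled control. Its ratio was -0.52 on array 1 and 0.77 on array 3. The mean of Ccnb2 was 0.25 ± 0.54 (SD, n = 4 arrays; adjusted p = 0.590, limma). With each array left out in turn this mean ranged from 0.073 to 0.50. With normexp it was 0.29 after loess and 0.74 after median centring. Mybl2 and Foxm1, transcription factors that switch on mitotic genes, had means of 0.27 and 0.10. Cdc25c, the phosphatase that activates Cdk1, was dim and was not above background in the channel labelled control on array 3, the one array on which its ratio was high (1.25).

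The spindle checkpoint and the anaphase-promoting complex had medians of -0.36, 0.21, 0.64 and 0.13 over 6 genes measured in full. Bub1b, a checkpoint kinase homologue, ranged from -0.44 on array 1 to 1.00 on array 3. Bub1, also a checkpoint kinase, was printed in 10 spots per array, and the spread between spots of an array, which share 1 extract, is technical. Its ratios were -0.52, 0.21, 0.60 and 0.06, with an SD between spots of 0.08, 0.05, 0.09 and 0.07. The highest spot of array 1 was at -0.36 and the lowest of array 3 at 0.50. Bub3, which binds both kinases, stayed between -0.28 and 0.02. Ube2c, the ubiquitin-conjugating enzyme of the complex, was among the lowest members, with ratios of -0.68, 0.09, 0.23 and -0.14 and a mean of -0.13 ± 0.40 (SD, n = 4 arrays; adjusted p = 0.725, limma).

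Chromosome, centromere and spindle genes reached the lowest values on array 1, with medians of -0.48, 0.26, 0.55 and 0.06, and all 11 tested were below 0 there. Top2a, the topoisomerase that untangles sister chromosomes, had signals of 1045, 1174, 975 and 1040 in the channel labelled DEP and 1457, 1218, 636 and 1131 in the channel labelled control. Its mean ratio was -0.01 ± 0.46 (SD, n = 4 arrays; adjusted p = 0.983, limma). The motor proteins Kif11, Kif20a and Kif23 had means of 0.25, 0.13 and 0.18.

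Mki67, whose product Ki-67 coats mitotic chromosomes and is the usual histological mark of dividing cells, had the lowest mean of the 54 tested. Its signals were 9212, 11543, 8593 and 9906 in the channel labelled DEP and 20583, 11014, 10537 and 15620.5 in the channel labelled control. Its ratios were -1.16, 0.07, -0.29 and -0.66, so that it was below 0 on arrays 3 and 4, where most members were above 0. A second probe for the same transcript gave -0.95, 0.22, -0.53 and -0.69. The brighter probe averaged -0.51 ± 0.52 (SD, n = 4; standard error 0.23, adjusted p = 0.306, limma) and the second -0.49, so both probes gave the same order, and neither passed the test. After normexp and median centring the mean of the brighter probe was -0.044, and Cenpf, with neither channel above background, was lower at -0.091. Without array 1 the mean was -0.29, and Ccnd1 was lower at -0.35, and over the arrays left out in turn it ranged from -0.70 to -0.29.

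**Figure D4:**
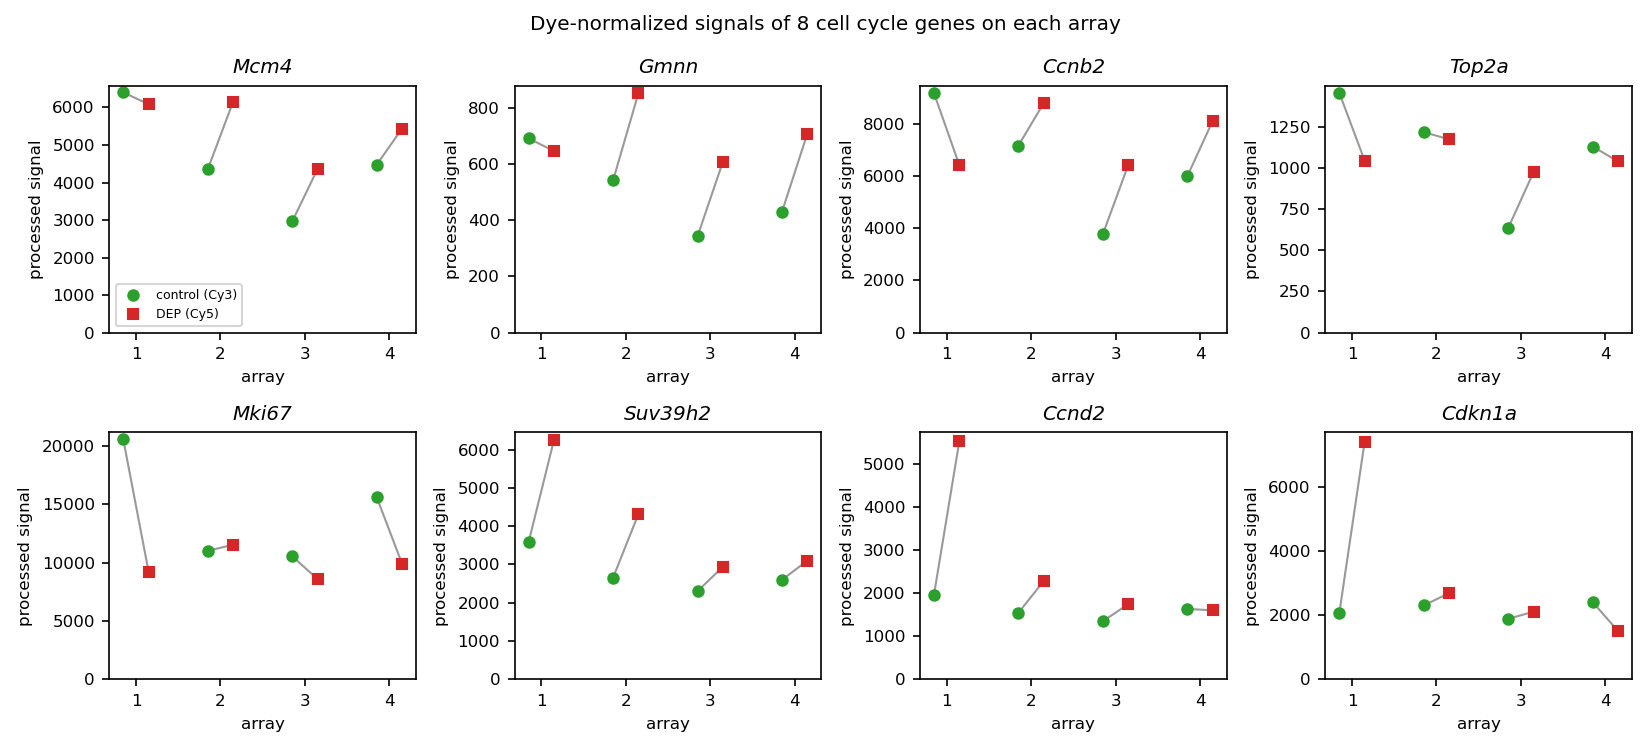
Processed signal (background-subtracted and dye-normalized, linear scale from 0) of 8 cell cycle genes on each array, in the channel labelled control (circles) and the channel labelled DEP (squares), joined within an array. For Mcm4, Gmnn, Ccnb2 and Top2a the control signal is highest on array 1 and lowest on array 3, and for Ccnd2 and Cdkn1a the DEP signal of array 1 (5512 and 7407) stands above all others. Signals were not normalized between arrays.

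Promoters of the members are described as background. The shares below come from sequence alone and would be the same whatever the ratios were. The RefSeq promoter table (GRCm38.p6) holds windows of 300 bases, from 250 before to 50 after a gene's start, for 45 of the 56 members, with 50 windows in all. Both strands were searched for E2F letters (TTCCCGC or TTGGCGC or TTCGCGC or TTGCCGC), the CCAAT box (CCAAT) and the cell cycle homology region, or CHR (TTTGAA or TTCGAA), which bind E2F factors, NF-Y and the DREAM and MuvB complexes in cell cycle genes. Of 14 windows of licensing and nucleotide genes, 9 held E2F letters (64.3%), against 9.57% of all 32851 windows. Of 22 windows of mitotic, checkpoint and chromosome genes, 16 held both CHR and CCAAT letters (72.7%), against 7.52% of all windows, and 3 held E2F letters (13.6%). Of 14 windows of the remaining members, 4 held E2F letters and 1 held both others. The windows of Mcm6 (chr1:128359656-128359955, minus strand), Ccnb2 (chr9:70421505-70421804, minus strand) and Mki67 (chr7:135716330-135716629, minus strand) are printed 5′ to 3′ along the gene, with the searched letters of either strand in capitals. E2F matches in Mcm6 overlap each other, since TTGGCGCGAA holds a match on each strand.
Mcm6: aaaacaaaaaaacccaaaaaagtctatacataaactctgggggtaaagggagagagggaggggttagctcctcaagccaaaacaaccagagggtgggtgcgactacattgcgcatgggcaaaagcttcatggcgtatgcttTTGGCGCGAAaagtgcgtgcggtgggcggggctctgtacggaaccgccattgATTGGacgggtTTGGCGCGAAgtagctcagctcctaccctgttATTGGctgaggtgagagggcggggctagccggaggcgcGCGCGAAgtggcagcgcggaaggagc
Ccnb2: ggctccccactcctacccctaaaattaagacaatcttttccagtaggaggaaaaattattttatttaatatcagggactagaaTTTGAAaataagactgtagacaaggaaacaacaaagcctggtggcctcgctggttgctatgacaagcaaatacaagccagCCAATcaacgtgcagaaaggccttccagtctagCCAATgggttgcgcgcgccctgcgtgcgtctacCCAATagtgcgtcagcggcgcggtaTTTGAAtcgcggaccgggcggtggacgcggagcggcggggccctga
Mki67: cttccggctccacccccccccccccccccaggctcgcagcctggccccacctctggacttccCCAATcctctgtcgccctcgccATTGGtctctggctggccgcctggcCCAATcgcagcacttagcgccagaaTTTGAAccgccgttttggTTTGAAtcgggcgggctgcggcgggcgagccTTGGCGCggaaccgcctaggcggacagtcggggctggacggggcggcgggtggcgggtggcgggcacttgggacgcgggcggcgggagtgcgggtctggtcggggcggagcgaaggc

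Mcm6 held 5 E2F matches, 2 CCAAT matches and 0 CHR matches, and its ratios were -0.32, 0.17, 0.37 and 0.08. Ccnb2 held 0 E2F, 3 CCAAT and 2 CHR matches. Mki67 held letters of all 3 kinds, with 1, 3 and 2 matches. Mcm6 and Ccnb2 had the common order of signs and Mki67 did not. A relation of the letters to the ratios was not tested. A match describes the window only and is not evidence of a bound site.

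The G1 cyclins and their kinases did not share 1 order. On array 1, 4 of the 6 measured in full were above 0. Ccnd2, the D-type cyclin with the highest mean among members measured in full, had signals of 5512, 2277, 1740 and 1594 in the channel labelled DEP and 1953, 1537, 1342 and 1628 in the channel labelled control. Its ratios were 1.50, 0.57, 0.37 and -0.03, with array 1 far above array 4, and Ccnd2 averaged 0.60 ± 0.65 (SD, n = 4; standard error 0.27, adjusted p = 0.309, limma). Without array 1 its mean was 0.30, below those of Gmnn (0.73) and Cdk1 (0.60). Ccnd1 had ratios of 0.59, 0.06, -0.72 and -0.37 and a mean of -0.11 ± 0.57 (SD, n = 4 arrays; adjusted p = 0.816, limma). Ccnd3, the D-type cyclin of blood cell precursors, was the brightest of the 3, with signals between 15711 and 27439, and its ratios of -0.67, 0.18, 0.13 and 0.20 had the order of the replication genes. Ccnd1 and Ccnd2 were thus high where Ccnd3 was low.

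Cdk4, the partner of D-type cyclins, stayed between -0.17 and 0.27. Cdk2, the partner of E-type cyclins, was above 0 on all arrays, at 0.17, 0.46, 0.50 and 0.09, with signals of 365, 348, 266 and 276 in the channel labelled DEP and 324, 253, 188 and 259 in the channel labelled control. Its mean was 0.31 ± 0.20 (SD, n = 4 arrays; standard error 0.13, unadjusted p = 0.0583, adjusted p = 0.284, limma). Ccne1, a partner of Cdk2, had ratios of -0.14, 0.65, 0.39 and 0.37. Ccne2 was not above background in either channel and had no ratio on 3 arrays.

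Cdk6, the second partner of D-type cyclins, exceeded background clearly on 4 arrays in the DEP channel and on 0 in the control channel. Its signals were 55, 46, 38 and 41 against 26, 26, 10 and 21, all of them dim. Against the higher, on each array, of its own control signal and the lowest control signal among probes above background, the DEP signal of Cdk6 was at least 1.50-fold higher as a mean of log2 values over the 4 arrays, and at least 1.17-fold higher with normexp signals. On arrays 3 and 4, where that lowest control signal was 36.5 and 33.2, the DEP signal was little above it. The adjusted p of the fit was 0.119 (limma), and as the probe passed through the DEP channel alone, nothing is read from it. Dye bias cannot be told apart from the bound, since no array carries the swapped dyes.

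Suv39h2, a histone H3 lysine methyltransferase of heterochromatin, was above 0 on every array. Its signals were 6256, 4320, 2941 and 3102 in the channel labelled DEP and 3586, 2657, 2301 and 2598 in the channel labelled control. Its ratios were 0.80, 0.70, 0.35 and 0.26, with a mean of 0.53 ± 0.26 (SD, n = 4 arrays; standard error 0.14, unadjusted p = 0.0136, adjusted p = 0.184, limma). A second, dim probe was above 0 on all arrays as well, but was not above background on any array in the channel labelled control. Of the E2F factors, E2f1, an activator, stayed between -0.06 and 0.18, and E2f8, a repressor, had the order of the replication genes, at -0.58, 0.57, 0.61 and 0.08.

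Of the 3 kinase inhibitors, Cdkn1a and Cdkn2c were above 0 on array 1, where 44 of 54 members were below 0. Cdkn1a encodes p21, which is induced by p53 and by differentiation. Its brighter probe had signals of 7407, 2684, 2106 and 1501 in the channel labelled DEP and 2053, 2301, 1882 and 2402 in the channel labelled control. Its ratios were 1.85, 0.22, 0.16 and -0.68, with a technical SD of at most 0.04 over the 8 or 9 spots of an array. The mean was 0.39 ± 1.06 (SD, n = 4 arrays; adjusted p = 0.635, limma), an SD larger than the mean. A second probe, for another transcript accession, gave 0.59, -0.26, -0.13 and 0.03, so that the probes differed in size on array 1 and in sign on arrays 2, 3 and 4. Without array 1 the mean of the brighter probe was -0.10.

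Cdkn2c, which encodes p18 and inhibits Cdk4 and Cdk6, had ratios of 0.60, 0.45, 0.11 and -0.07. Cdkn1b, which encodes p27, stayed between -0.08 and 0.20. The values of Ccnd2 and of the brighter Cdkn1a probe over the arrays, highest on array 1 and lowest on array 4, had the order of the keratinocyte marker Krt5 (2.17, 0.35, 0.08 and -1.24), whose part in them was not tested. Of the 5 members not measured in full, Aurkb and Cenpf, like Ccne2, had neither channel above background on any array.

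Probes of 1 gene agreed in part. Of 12 members with several probes measured in full, 8 had means of the same sign over their probes, and Birc5, Ccnd3, Cdc6 and Ube2c did not. The largest gap between the means of such probes was 0.51, for Cdc6.

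Among other genes of the pathway, which are not members, the order of signs described for the members was found in 17 of 35 other DNA replication genes, 28 of 48 other mitosis genes and 11 of 29 other regulators, against 10.6% of all genes. After normexp and median centring these counts were 7, 21 and 10, against 8.42% of all genes, and the medians on array 1 were 0.07, -0.05 and 0.13. With normexp and loess the counts were 12, 24 and 7, against 7.76%, and those medians were -0.13, -0.25 and -0.05. By an unadjusted p under 0.05, 10% of all genes tested (2573 of 25679) were higher and 8.64% (2219) lower. Of the 35 replication genes, 26 were above 0 in the mean with a median of 0.10, and their medians by array were -0.22, 0.13, 0.32 and 0.11. By that p, 2 were higher and 2 lower. Among those measured in full, Ung, the uracil glycosylase, had the highest mean (0.49), and Orc4, a subunit of the origin recognition complex, and Dbf4, the activator of the Cdc7 kinase, the lowest (-0.44 and -0.16). Of the 48 mitosis genes, 42 were above 0 with a median of 0.23, and medians by array of -0.31, 0.37, 0.64 and 0.18, and 5 were higher and 0 lower by that p. Among those measured in full, Kif18b (0.72) and Cks2 (0.61) were the highest, and Cep55 (-0.44) and Ndc80 (-0.32) the lowest.

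Of the 29 regulators of the RB, E2F, p53 and MYC pathways, 22 were above 0, with a median of 0.21 and medians by array of -0.02, 0.24, 0.24 and 0.16. Here 2 were higher and 1 lower by an unadjusted p under 0.05, against the same 10% and 8.64%. Bax, a p53 target that promotes cell death, was below 0 on all arrays, at -0.69, -0.60, -0.47 and -0.32, while Mdm2, another p53 target, was above 0 on all, at 0.09, 0.52, 0.40 and 0.47. These targets of p53 thus differed in direction. Myc (0.53) and Cdkn2b (0.45) had the highest means among those measured in full, and Bax (-0.52) and Cdkn2d (-0.15) the lowest. Of the genes of these 3 lists, 0 had an adjusted p under 0.05 in limma's test.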

How the data were processed

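Each of 4 two-colour arrays compared a DEP ear (Cy5) with a control ear (Cy3). The authors quantified spots with Feature Extraction 10.10.1.1; the deposited processed intensity is background-subtracted and dye-normalized, and the deposited log10 ratio is Cy5 over Cy3, with 0 where the software gave none. A table of the authors' deposited log10 ratios served as an alternative. Here ratios were converted to log2. Control spots, flagged spots (164 to 274 per array) and spots without a ratio (6179 to 8558 of 43020) were left out, spots of a probe were averaged, and probes were named by accession through RefSeq (GRCm38.p6), which matched 27655 of 39429. A probe needed 3 ratios, which left 31577 probes and 25679 genes, and the brightest probe stood for a gene. An intercept was fitted with limma 3.58.1 (lmFit and eBayes; R 4.3.3; prior degrees of freedom 1.98), with two-sided p-values adjusted by Benjamini-Hochberg across the probes tested, and the fit was tested on simulated data. Python 3.11.15 made the tables (pandas 2.3.3 with numpy 2.4.6) and the figures (matplotlib 3.10.9). Of all probes, 65.4% to 68.9% were well above background in Cy5 and 59.2% to 68.0% in Cy3. Precision is limited by having 4 arrays. In all, 0 value columns were left without a sample.

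The members and lists were chosen with earlier results of these data known. Values on every array are given for members measured in full that have 1 sign on all arrays, are among the highest 3 or lowest 3, or have an unadjusted p under 0.05; further members are examples of their group, chosen after their values were seen. Alternatives were normexp (offset 50, on median signals, as the files hold no mean signals) with loess or median centring, median-centred ratios, the deposited table, 2 filters on dim probes, flagged or ratio-less spots kept, mean of probes, an intensity trend, least squares without moderation, and each array left out.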

Additional observations from a re-analysis of the deposited data

Results flagged for a closer look

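A single array stood apart from the other 3, by Dixon's criterion at the 95% level, for 3 of 73 values tested, and chance alone picks out about 1 in 20. Ccnd3 had a log2 ratio of -0.67 on array 1, with the others between 0.13 and 0.20. Birc5, which encodes survivin of the chromosomal passenger complex, had -0.76 on array 1, with the others between 0.20 and 0.35. Cdc25c had 1.25 on array 3, with the others between -0.08 and 0.04, and on that array its control channel was not above background.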

How the results depend on the processing

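The members' mean ratios were recomputed in 806 combinations of member and setting; 37 turned direction, and 34 of 54 members turned in no setting. With normexp and median centring, 29 members were higher with an unadjusted p under 0.05 and 8 had an adjusted p under 0.05 (Mcm7, Mcm4, Ccne1, Mybl2, Cdkn1b, Tk1, Suv39h2 and Cdkn2c), against 39.3% and 15.4% of all genes measured in full. In that setting 22 of 54 members were lower on array 1, against 43.0% of all genes, and 78.8% of the genes measured in full were above 0. The medians then were 0.49 for all members, 0.49 for G1 cyclins and kinases, 0.53 for licensing, 0.62 for nucleotide supply, 0.46 for E2F factors with Suv39h2, 0.34 for the other regulators, 0.60 for granulocyte precursors and 0.54 for bone and cartilage. The mitotic entry, checkpoint and chromosome groups rose too, with medians on array 3 of 1.01, 0.88 and 0.90. Ccnd1 (0.26), Ccnd3 (0.55), Cdc6 (0.13), Bub3 (0.28), Ube2c (0.23), Top2a (0.25) and Nusap1 (0.31) turned to above 0. With normexp and loess, 1 member was lower with an unadjusted p under 0.05 (Mki67), and Cenpf (0.056), Birc5 (-0.021) and E2f1 (-0.034) turned. With the mean of all probes of a gene, Cdc6 (0.25), Ube2c (0.022) and Birc5 (-0.12) turned, and with median-centred ratios Birc5 was at -3.02e-05. The ratio of 1 member, Cdk6, passed 2-fold with a control signal not above background, and 0 members did with either normexp setting, with both channels required above background, which leaves Cdk6 out, and without array 3. The cause was not tested where none is given.

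With each array left out in turn, the number of members higher with an unadjusted p under 0.05, Cdk6 included, ranged from 1 to 16, of those lower from 0 to 1, of those past 2-fold higher from 0 to 1 and of those above 0 from 36 to 49, and the median of the members from 0.06 to 0.30. The median of bone and cartilage ranged from -0.019 to 0.25. Direction turned for Ccnd1 (-0.35 to 0.090), Ccnd3 (-0.12 to 0.17), Cdc6 (-0.12 to 0.23), Mcm6 (-0.022 to 0.21), Rrm2 (-0.016 to 0.36), Ccnb1 (-0.13 to 0.24), Cdc25c (-0.029 to 0.42), Plk1 (-0.041 to 0.20), Bub1 (-0.082 to 0.29), Ube2c (-0.24 to 0.059), Top2a (-0.22 to 0.15), Cenpa (-0.055 to 0.35), Cenpe (-0.079 to 0.29), Birc5 (-0.084 to 0.29), Kif20a (-0.028 to 0.30), Nusap1 (-0.16 to 0.22) and Cdkn1a (-0.10 to 0.75). Each ratio sets both channels of an array against each other, so the fit is already paired by array. With 1 group, no other pairing was fitted. Signal over background limits Cdk6, Cdc25c, Cenpf, Ccne2 and Aurkb.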
